A study of Mus musculus with 8 samples.

Results

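The genes of the repressor arm of the circadian clock and its direct output factors were followed in hippocampal CA1 RNA of mice, in libraries from conditional knockout (cKO) mice for Brpf1 and from wild-type (WT) mice. The 10 genes were taken by symbol from the deposited table of 34094 genes, and all 10 were found and passed the filter on low values. They are the period genes Per1, Per2 and Per3, the cryptochromes Cry1 and Cry2, the repressor gene Ciart, the nuclear receptors Nr1d1 and Nr1d2, and the transcription factors Dbp and Tef. The cKO group holds 4 libraries, whose titles call them cko type (Brpf1 knockdown), and the WT group holds 4 libraries. All mice were C57BL/6 animals of 2 months kept in 12 h of light and 12 h of dark. Brpf1 encodes a scaffold of histone acetyltransferase complexes. The Cre driver, the exons removed and the hour at which tissue was taken are not stated by the sources used, and a protocol speaks of 3 pairs of mice while each group has 4 libraries. Which mouse gave which library is not stated, so the p-values here measure only library-to-library spread, some of which can be technical.

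The clock of mammalian cells is a loop in which the proteins CLOCK and BMAL1 (the product of Arntl) bind E-box sequences and switch on the Per, Cry, Ciart and Nr1d genes. PER and CRY proteins, and the product of Ciart, then repress CLOCK and BMAL1, while the Nr1d products (REV-ERB alpha and beta) repress Arntl. DBP and TEF are output factors of the PAR bZIP family, which bind D-box sequences and carry the rhythm to other genes. The levels of most of these transcripts rise and fall over the day, also in the hippocampus, and Per1 and Per2 respond in addition to neuronal activity and to glucocorticoids.

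Promoter sequences of RefSeq (build GRCm38.p6, from 250 bases before to 50 bases after an annotated start) were searched on both strands for the E-box CACGTG, the related CACGTT, the D-boxes TTATGTAA and TTACGTAA, the cAMP response element TGACGTCA and the ROR response element (RORE). No 2 matches overlap in the windows shown. The table has 11 windows for 9 of the 10 genes (none was matched for Per2). The E-box was found in 5 of these 11 windows, those of Ciart, Cry1, Tef (both starts) and Per1 (the upstream of 2 starts), while 7.15% of 32817 mouse promoter windows hold it. These are the 4 genes with the largest differences between the groups given below, and a link between motif and difference was not tested. Their windows were chosen for printing by those differences, with the motifs in capitals. Ciart has 3 E-boxes, which begin 116, 58 and 44 bases before the start. CACGTT was found in 3 of the 11 windows (4.69% of all windows), and TTACGTAA, TGACGTCA and RORE in 0 of 11 (0.119%, 1.79% and 0.219% of all windows). All windows here means the 32817, from which 1 chromosome that holds none of the 11 was left out. Cry1 has 1 E-box 60 bases before the start and CACGTT in reverse (printed AACGTG) 79 bases before it. The Per3 window is printed for contrast, since it holds no E-box but 2 copies of the D-box TTATGTAA, 205 and 158 bases before the start, a motif present in 0.935% of all windows.
Ciart, chr3:95882179-95882478, minus strand: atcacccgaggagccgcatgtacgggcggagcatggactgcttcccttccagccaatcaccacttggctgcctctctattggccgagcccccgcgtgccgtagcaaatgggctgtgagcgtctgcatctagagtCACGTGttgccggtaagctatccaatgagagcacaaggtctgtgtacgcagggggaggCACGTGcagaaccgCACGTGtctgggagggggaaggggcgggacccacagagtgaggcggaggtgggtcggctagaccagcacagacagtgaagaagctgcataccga
Cry1, chr10:85185005-85185304, minus strand: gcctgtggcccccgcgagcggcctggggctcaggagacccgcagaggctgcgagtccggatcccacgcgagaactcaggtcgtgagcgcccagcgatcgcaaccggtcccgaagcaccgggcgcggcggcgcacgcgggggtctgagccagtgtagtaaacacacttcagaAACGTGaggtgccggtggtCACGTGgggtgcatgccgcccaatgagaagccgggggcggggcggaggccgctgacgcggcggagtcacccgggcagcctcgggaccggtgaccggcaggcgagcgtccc
Per1, chr11:69098699-69098998, plus strand: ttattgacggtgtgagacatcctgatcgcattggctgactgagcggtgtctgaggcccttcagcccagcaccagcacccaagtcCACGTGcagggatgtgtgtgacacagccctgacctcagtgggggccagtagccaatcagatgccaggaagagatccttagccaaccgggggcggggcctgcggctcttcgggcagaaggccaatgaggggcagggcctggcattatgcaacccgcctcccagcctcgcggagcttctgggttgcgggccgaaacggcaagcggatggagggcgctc
Tef, chr15:81811164-81811463, plus strand: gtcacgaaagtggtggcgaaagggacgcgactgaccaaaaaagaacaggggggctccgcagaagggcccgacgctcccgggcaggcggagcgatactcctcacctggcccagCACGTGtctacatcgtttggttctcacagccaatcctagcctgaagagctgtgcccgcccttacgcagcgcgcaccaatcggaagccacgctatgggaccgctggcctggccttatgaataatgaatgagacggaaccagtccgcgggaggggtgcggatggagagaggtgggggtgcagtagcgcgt
Per3, chr4:151044616-151044915, minus strand: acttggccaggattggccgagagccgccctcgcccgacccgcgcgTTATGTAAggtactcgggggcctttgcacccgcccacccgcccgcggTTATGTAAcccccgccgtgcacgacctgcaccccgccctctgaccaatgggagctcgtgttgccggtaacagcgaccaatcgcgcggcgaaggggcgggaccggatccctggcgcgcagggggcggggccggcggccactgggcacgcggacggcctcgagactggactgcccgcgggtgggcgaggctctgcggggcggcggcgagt

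The remaining windows held CACGTT once in Cry2 and once in Nr1d1, and none of the motifs in Nr1d2 and Dbp or at the downstream start of Per1. A motif found in a window is not shown to be bound here, and a window without it does not speak of sites elsewhere in the gene. Among all genes tested, 82 of 1483 with an E-box in a promoter window (5.53%) were higher in cKO at an unadjusted limma p below 0.05, against 669 of 12625 with a window and no E-box (5.30%). Lower at that p were 57 (3.84%) with an E-box and 611 (4.84%) without. A positive log2 fold change was found for 55.2% with an E-box (median 0.022) and 49.6% without (median −0.0024). These shares were not tested.

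Reads on genes ranged from 40330226 to 46559795 per cKO library and from 42346644 to 49897832 per WT library. Values are normalized reads (reads divided by the size factor of the library), and each log2 fold change is a difference of log2(normalized reads + 1). The targeted gene Brpf1 had 848, 1032, 897 and 1004 normalized reads in cKO and 1358, 1450.6, 1473 and 1380.1 in WT. It averaged 945 ± 87.3 normalized reads in cKO and 1415 ± 55.1 in WT (SD, n = 4 each). Every cKO library lay below every WT library, which held for 2.35% of all genes tested. limma gave Brpf1 a log2 fold change of −0.59 and an adjusted p of 0.132, above the threshold of 0.05. Its FDR in the authors' deposited table is 1.47e-07. Markers of neurons and of CA1 were present in every group, with sums over 14 genes from 361354 to 392617 in cKO and from 336402 to 376735 in WT. The CA1 neuron list was led by Camk2a (115854 ± 8848 in cKO, 110210.0 ± 12427 in WT) and Snap25 (102045 ± 4576 in cKO, 89642 ± 7747 in WT). No marker gene found in the table lacked reads in all libraries, so transcripts of other cell types are in these samples too, and in bulk RNA fewer cells of a type and less RNA per cell cannot be told apart. Sums over 10 choroid plexus markers ran from 19356 to 70815 in cKO and from 12417 to 241092 in WT, and all 10 were highest in WT replicate 2 (Ttr averaged 22896 ± 16262 in cKO and 57966 ± 66115 in WT). Sums over 10 oligodendrocyte markers ran from 98431 to 152584 in cKO and from 121031 to 177607 in WT, with a negative log2 fold change for 10 of 10 (Mobp averaged 31612.5 ± 8611 in cKO and 38601 ± 6870.2 in WT). The sums over astrocyte, microglia, endothelial and interneuron markers overlapped between the groups as well, and 0 genes of any marker list passed limma over all genes. At an unadjusted p under 0.05, 3 of 10 oligodendrocyte markers were lower in cKO (2 of them without overlap), and 4 of 14 neuron and CA1 markers were higher (2 of them without overlap). Of all genes tested, 4.6% were lower and 4.07% higher at that p, and 2.35% were lower and 2.57% higher without overlap. The neuron and CA1 list went both ways, with 6 positive and 8 negative log2 fold changes (median −0.019). Without cKO replicate 2 it had 8 of 14 positive (median 0.018). A positive log2 fold change was found for 47.3% of all genes tested. The authors' deposited table gives the oligodendrocyte genes Aspa and Ermn, chosen after their values were seen, an FDR of 4.77e-05 and 0.0384. cKO replicate 2 stood apart in glucocorticoid-induced genes, so several results are also given without it.

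None of the 10 genes passed the test across all genes, yet all 10 averaged higher in cKO. limma gave 0 of 10 an adjusted p under 0.05 (Benjamini-Hochberg over 26135 genes), and limma-voom also 0, while 5 genes of the whole table passed limma (0.0191%). The targeted gene Brpf1 did not pass limma either (adjusted p = 0.132). Adjusted p over the 10 genes ranged from 0.496 for Per1 to 0.832 for Nr1d1. At an unadjusted p under 0.05, 4 of the 10 were higher in cKO (Per1, Cry1, Ciart and Tef) and 0 lower, where 4.07% of all genes tested were higher and 4.6% lower (8.67% in either direction). Of the genes whose mean level is at least that of Ciart, the lowest of the 10, 7.34% were higher at that p. A positive log2 fold change was found for 10 of 10, against 47.3% of all genes tested and 56.8% of the 11456 genes at least as high as Ciart. The median log2 fold change was 0.16 over the 10 genes and −0.018 over all genes tested. In 3 of 10 (Per1, Ciart and Tef) every cKO library lay above every WT library, which held for 2.57% of all genes tested and for 4.54% of those at least as high as Ciart. In 0 of 10 every cKO library lay below every WT library (2.35% of all genes tested). None of the 10 has an FDR under 0.05 in the authors' deposited table (0.657% of its 34094 genes do). The lowest FDR among them in the authors' deposited table is 0.119, for Per1.

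**Figure D1:**
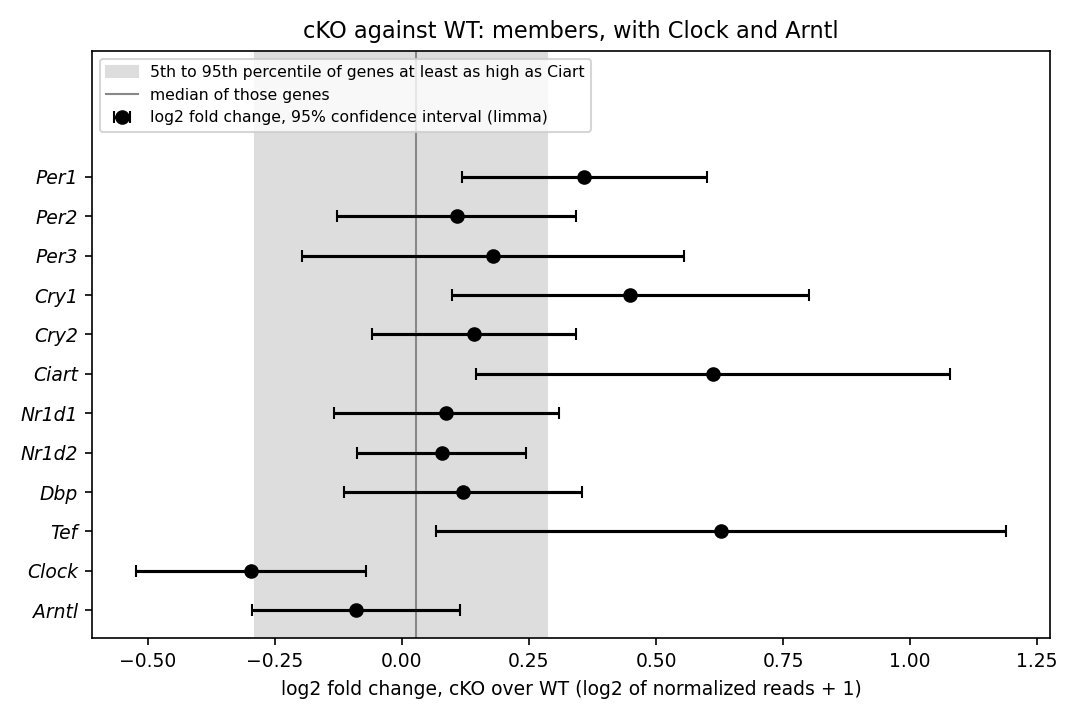
Log2 fold change (cKO over WT, on the log2 scale of normalized reads + 1, horizontal axis) of the 10 genes and of Clock and Arntl, as points with 95% confidence intervals from limma (n = 4 per group). The grey band spans the 5th to the 95th percentile of the 11456 genes at least as high as Ciart and the grey line is their median of 0.027. Per1, Cry1, Ciart and Tef lie to the right of the band, and Clock just past its left edge.

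The period genes differed in how far apart the groups lay. Per1 (ENSMUSG00000020893), an early-responding repressor of the loop, had 2322, 2535, 2532 and 2880.3 normalized reads in cKO replicates 1 to 4, against 1922, 1672, 2271 and 2175 in WT replicates 1 to 4. The groups did not overlap, and WT replicate 2 was the lowest library. Means were 2568 ± 231 in cKO and 2010.1 ± 269 in WT (SD, n = 4 each, two-sided exact permutation p = 0.0286, the smallest that 4 against 4 can give). limma put Per1 at a log2 fold change of 0.36 (SE 0.11, 95% interval 0.12 to 0.60, adjusted p = 0.496). Per1 was at 0.27 without WT replicate 2.

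Per2 (ENSMUSG00000055866), whose protein is a core partner of the cryptochromes, had 1409.9, 1062, 1182 and 1276 normalized reads in cKO and 1008, 1143, 1194 and 1219 in WT. The groups overlapped, with cKO replicate 1 the highest and cKO replicate 2 below 3 WT libraries. The means of 1233 ± 147 in cKO and 1141 ± 93.9 in WT (SD, n = 4 each, exact permutation p = 0.343) gave a log2 fold change of 0.11, with a 95% interval from −0.13 to 0.34. It was 0.041 without cKO replicate 1, 0.18 without cKO replicate 2 and 0.050 without WT replicate 1. Per3 (ENSMUSG00000028957), a period paralog that is not essential for the loop in mice, had 1862, 2588, 1559 and 1436 in cKO and 1754, 1365, 1544 and 1773 in WT. Its cKO replicates 2 and 1 lay above every WT library, and cKO replicates 3 and 4 lay inside the WT range. The log2 fold change of Per3 was 0.18 (SE 0.17, 95% interval −0.20 to 0.56), and 0.0084 without cKO replicate 2, 0.29 without cKO replicate 4 and 0.10 without WT replicate 2.

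Of the cryptochromes, which form the main repressor with PER proteins, Cry1 had the larger log2 fold change, a difference between genes that was not tested. Cry1 (ENSMUSG00000020038) had 409.6, 715, 570.3 and 529.5 normalized reads in cKO and 370.3, 432, 391 and 405 in WT. Of its cKO libraries, 3 lay above all of WT and cKO replicate 1 lay inside the WT range. The means were 556 ± 126 in cKO and 399.6 ± 25.7 in WT (SD, n = 4 each, exact permutation p = 0.0571), a log2 fold change of 0.45 (SE 0.16, limma adjusted p = 0.512) that was 0.32 without cKO replicate 2. Cry2 (ENSMUSG00000068742) had 4989, 5144, 4947 and 5672 in cKO and 4082, 4701, 5379 and 4709 in WT. WT replicate 3 was second only to cKO replicate 4, so the groups overlapped. The log2 fold change of Cry2 was 0.14, with a 95% interval from −0.060 to 0.34, and it was 0.074 without WT replicate 1. The ratio of Cry1 to Cry2 within a library averaged 0.107 ± 0.0251 in cKO and 0.0853 ± 0.00875 in WT (SD, n = 4 each), with overlap between the groups.

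Ciart (ENSMUSG00000038550, also called Chrono), whose protein represses CLOCK and BMAL1, had 356, 521, 333 and 299 normalized reads in cKO and 279.8, 172, 253 and 276 in WT. The groups did not overlap, although cKO replicate 4 and WT replicate 1 were close, and both ends of the range were single libraries (cKO replicate 2 and WT replicate 2). The means of 377 ± 98.7 in cKO and 245 ± 50.5 in WT (SD, n = 4 each, exact permutation p = 0.0286) corresponded to a log2 fold change of 0.61 (SE 0.21, limma adjusted p = 0.510). It was 0.45 without cKO replicate 2 and also 0.45 without WT replicate 2.

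The nuclear receptor genes Nr1d1 and Nr1d2, the repressors of Arntl, had log2 fold changes near 0 in intervals that span it. Nr1d1 (ENSMUSG00000020889) had 2786, 2634, 2868 and 3179 normalized reads in cKO and 2343, 2623, 3154 and 2708 in WT. Nr1d2 (ENSMUSG00000021775) had 5164, 4944, 5041 and 5247 in cKO and 5384, 4522, 4513 and 4944 in WT. In both genes the libraries of the 2 groups intermingled, and the highest value of Nr1d2 was in WT replicate 1. The log2 fold changes were 0.087 for Nr1d1 (95% interval −0.13 to 0.31) and 0.079 for Nr1d2 (95% interval −0.088 to 0.24). Over the 16 alternatives they ran from 0.021 (without WT replicate 1) to 0.16 (without WT replicate 3) for Nr1d1. For Nr1d2 they ran from 0.036 (with quantile normalization) to 0.13 (without WT replicate 1). Exons of Nr1d1 share 263 bases with Thra, the thyroid hormone receptor alpha gene on the other strand, which averaged 36014 ± 2989 in cKO and 31883 ± 2293 in WT. The strand setting of the counting is not given, so reads of this shared stretch cannot be assigned to either gene with certainty.

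The output factors Dbp and Tef are paralogs, and their log2 fold changes were not tested against each other. Dbp (ENSMUSG00000059824), in many tissues among the most rhythmic transcripts, had 1753, 1843, 1997 and 2195 normalized reads in cKO and 1834, 1506, 1833 and 2003 in WT. These groups overlapped, and the log2 fold change was 0.12 (95% interval −0.11 to 0.36). It was 0.039 without WT replicate 2, the lowest library for Dbp, and 0.061 without cKO replicate 4, the highest. Tef (ENSMUSG00000022389) had 12305, 14907, 13200.0 and 12584 in cKO and 10539, 9133, 11464 and 4835 in WT. Its groups did not overlap, and WT replicate 4 lay far below the other 7 libraries. The means were 13249 ± 1167 in cKO and 8993 ± 2933 in WT (SD, n = 4 each, exact permutation p = 0.0286), a log2 fold change of 0.63 (SE 0.25, limma adjusted p = 0.539). The unadjusted limma p of Tef was 0.0323. Without WT replicate 4 the log2 fold change was smaller, 0.35, and so was the unadjusted limma p, at 0.00675 (adjusted p of 0.736). Without cKO replicate 2, 3 or 4 the log2 fold change was 0.57, 0.63 or 0.65, close to that with all libraries, and the unadjusted limma p was 0.0871, 0.0558 or 0.0552. The exons of Dbp share 539 bases with Sphk2 on the other strand (1159 ± 151 in cKO, 962 ± 93.2 in WT), the same limit as for Nr1d1. Cry2 shares 295 bases with D930015M05Rik (42.2 ± 17.5 in cKO, 58.7 ± 11.5 in WT) and Tef 193 with Gm17597 (31.1 ± 10.5 in cKO, 43.5 ± 11.5 in WT), both far lower than the genes they overlap.

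**Figure D2:**
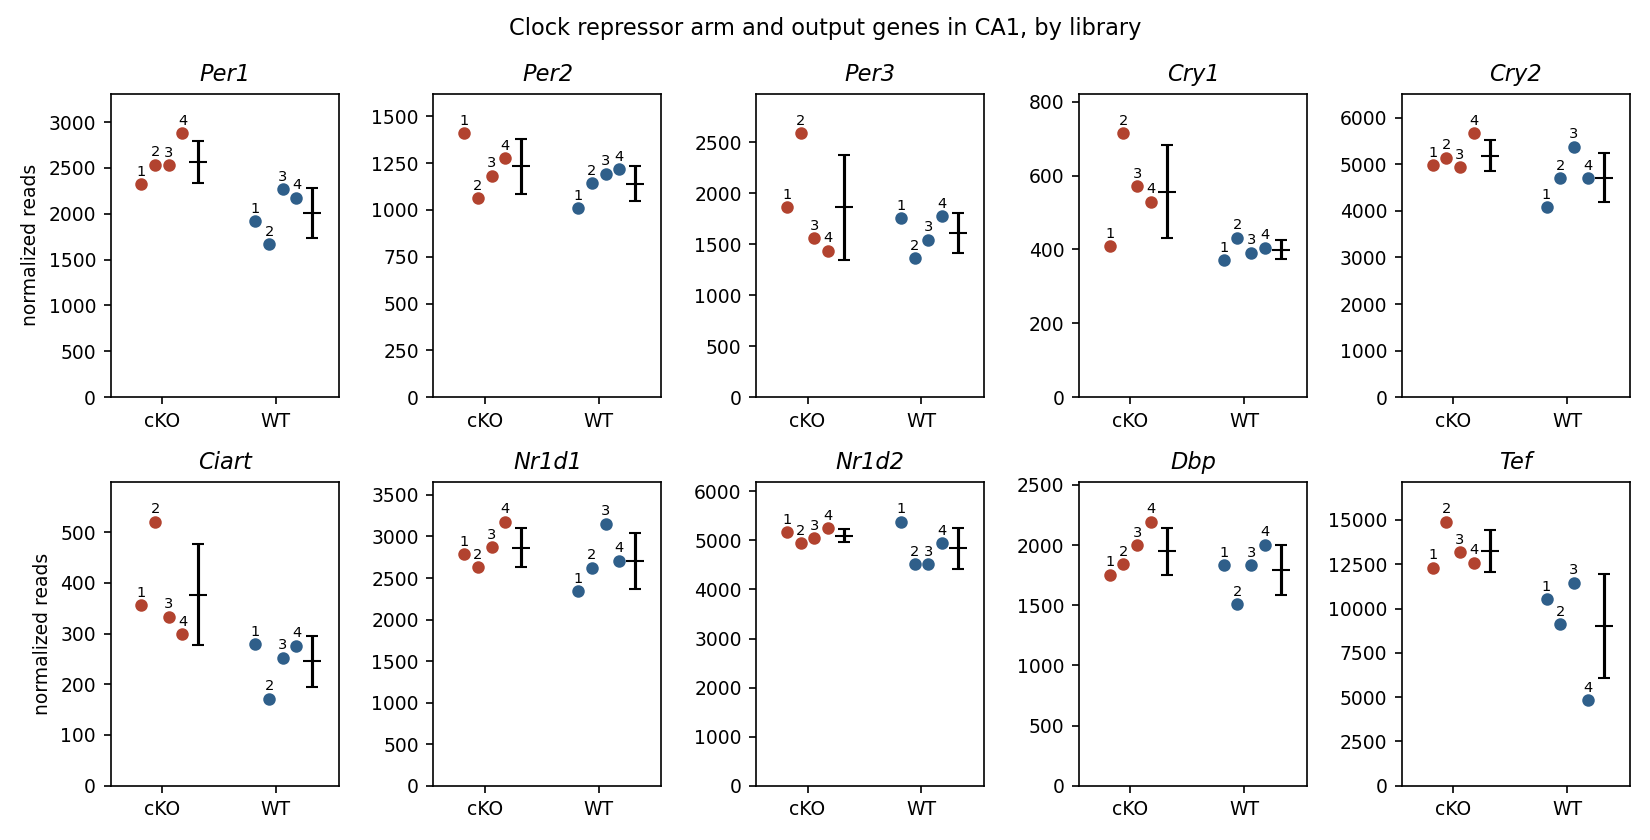
Normalized reads (vertical axes, from 0, each gene on its own scale) of the 10 genes in each cKO and WT library, labelled by replicate number, with the mean and SD (n = 4) as a bar beside the points. The groups are apart in Per1, Ciart and Tef and overlap in the other genes, and cKO replicate 2 is the highest library for Per3, Cry1, Ciart and Tef.

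Against genes of like level, Tef and Per3 varied most within the groups. The SD of the log2 values within groups was 0.41 for Tef, larger than for 95.8% of the 688 genes within 0.5 log2 units of its mean level, whose median SD was 0.13. It was 0.29 for Per3, larger than for 89.5% of 2792 genes of like level, and 0.34 for Ciart (77.3% of 1839). Nr1d2, at 0.090, varied less than most genes of its level (20.4% of 1515 had a smaller SD). The other 6 genes lay between 48.7% and 66.3% of genes of like level.

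Per kilobase of exon, Tef was the most abundant of the 10 and Cry1 and Ciart were the least. Tef averaged 1684 ± 148 normalized reads per kilobase in cKO and 1143 ± 373 in WT (SD, n = 4 each). Nr1d2, Nr1d1 and Cry2 followed, with 943, 932 and 821 in cKO and 895, 879.8 and 747 in WT, and these 3 overlapped with their neighbours among them. Tef and Nr1d2, and Cry2 and Dbp, overlapped in WT but not in cKO. Dbp averaged 651 ± 64.7 in cKO and 599 ± 69.4 in WT, and Per1 456 ± 41.0 in cKO and 357 ± 47.8 in WT. In both groups all libraries of Dbp were above those of Per1, and all of Per1 above those of Per2. Per2 and Per3 overlapped in both groups, at 210.5 and 194 in cKO and at 195 and 167 in WT. Ciart and Cry1 stood last at 167 and 166 in cKO and at 108 and 119.6 in WT. In WT every Per3 library was above every Cry1 library, which was not so in cKO.

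**Figure D3:**
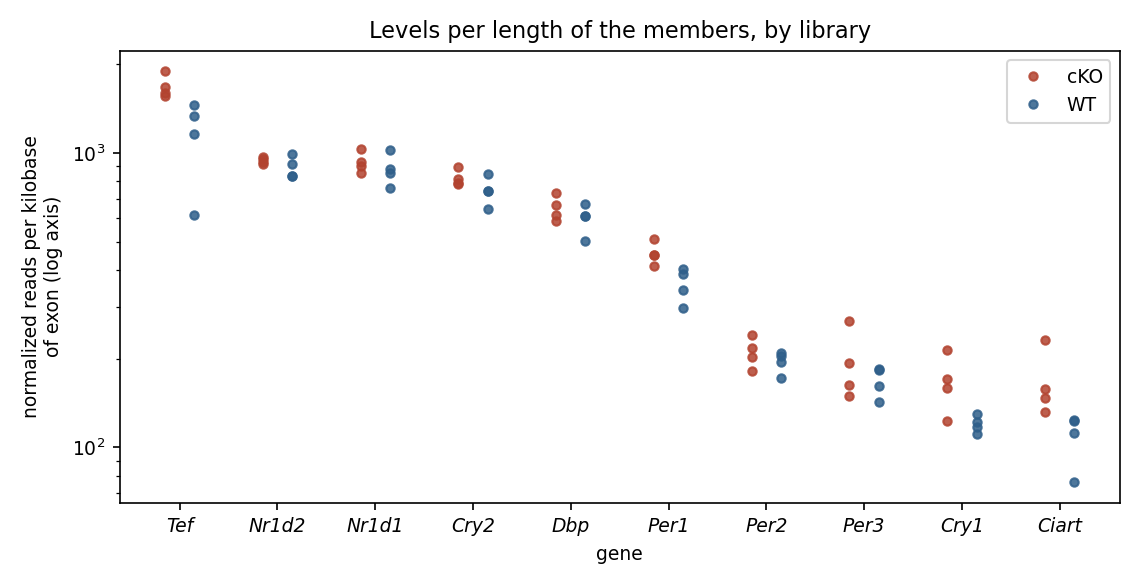
Normalized reads per kilobase of exon (vertical log axis) of the 10 genes, ordered by their WT mean, with 1 point for each cKO library and each WT library. Tef leads, with 1 WT library far below its group, and steps that separate all libraries are seen between Dbp and Per1 and between Per1 and Per2.

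Activator genes were split in direction, and Clock averaged lower in cKO. Of 11 genes for activators and the accessory loop, 5 had a positive and 6 a negative log2 fold change (median −0.064), 0 passed limma over all genes, and at an unadjusted p under 0.05 Bhlhe40 was higher and Clock lower. Clock kept an unadjusted p under 0.05 in 16 of 16 alternatives and Bhlhe40 (0.0491 with all libraries) in 6 of 16. Without cKO replicate 2 the list had 6 positive values and a median of 0.052. With all libraries, 47.3% of all genes tested were positive, and 4.07% were higher and 4.6% lower at an unadjusted p under 0.05. Clock had 4745, 4213, 4028 and 3995 normalized reads in cKO and 5439, 4633, 6156 and 4734 in WT, overlapping at cKO replicate 1 (log2 fold change −0.30, SE 0.10, adjusted p = 0.510). Arntl averaged 1532 ± 63.6 in cKO and 1638 ± 183 in WT (SD, n = 4 each), and its groups overlapped. The ratio of Per1 to Clock within a library was 0.489, 0.602, 0.629 and 0.721 in cKO and 0.353, 0.361, 0.369 and 0.459 in WT, with no overlap. The ratio of Per1 to Arntl was 1.67 ± 0.108 in cKO and 1.24 ± 0.235 in WT (SD, n = 4 each), also with no overlap. Of 11 ratios computed these were the 2 without overlap, and they carry no test. Bhlhe40, an E-box repressor, averaged 3499 ± 420.3 in cKO and 2870 ± 506 in WT, with overlap. Hlf, the third PAR bZIP factor, averaged 4570 ± 1369 in cKO and 3332 ± 667 in WT, also with overlap.

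Other output genes and the modifiers of clock proteins did not pass limma over all genes either (0 of each list). Their counts stand beside 47.3% of all genes tested with a positive log2 fold change and 4.07% higher at an unadjusted p under 0.05, or 56.8% and 7.34% of the genes at least as high as Ciart. Of 20 modifier genes 14 had a positive log2 fold change (median 0.080), and 2 were higher at an unadjusted p under 0.05. They were Timeless, a replication and clock-associated gene (151 ± 39.2 in cKO, 91.7 ± 19.2 in WT), and the ubiquitin ligase gene Ddb1 (7975 ± 524 in cKO, 6756 ± 686 in WT). Of 15 measured output genes beyond the 10 followed here, 13 had a positive log2 fold change (median 0.12) and 3 were higher at an unadjusted p under 0.05. The mitotic kinase gene Wee1, with an E-box promoter known in mouse liver, averaged 876 ± 106 in cKO and 699 ± 42.1 in WT (SD, n = 4 each) without overlap. The reductase gene Por averaged 1954 ± 102.1 in cKO and 1602 ± 236 in WT, and Bhlhe40, whose p lies at the limit, is the other of the 3. Under the 16 alternatives Timeless and Wee1 kept an unadjusted p under 0.05 in 16 and Ddb1 and Por in 14. Cipc, an inhibitor of CLOCK, had 381, 3597, 2925 and 1010.2 in cKO and 475, 244, 421 and 1095 in WT. Of 10 genes of the PAR bZIP family and its targets, 8 had a positive log2 fold change (median 0.20), and 2, Por among them, were higher at an unadjusted p under 0.05. Pdxk, a target of PAR bZIP factors in mouse brain, averaged 5101 ± 556 in cKO and 4352 ± 573 in WT, with overlap. Some genes stand in more than 1 of these lists. Without cKO replicate 2, 16 of 20 modifier genes were positive (median 0.092) and 11 of 15 output genes (median 0.15). The PAR bZIP list then had 9 of 10 positive (median 0.19).

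One cKO library stood apart in genes that glucocorticoid hormones induce, and it was also the highest library for 4 of the clock genes. Of 18 glucocorticoid-induced genes, 15 had their highest value in cKO replicate 2, where 15.4% of all genes tested do. Their summed normalized reads were 31740.4, 65059, 38377 and 40419 in cKO and 34974, 31843, 35867 and 34614 in WT. Fkbp5, a chaperone gene of the hormone receptor, had 2027, 5653, 2370 and 2585 in cKO and from 2034 to 2282 in WT. Cdkn1a, a cell cycle inhibitor gene, had 209.6, 2372, 243 and 488 in cKO and from 202.9 to 280.8 in WT. These 2 genes were chosen after their values were seen. Of the list, 17 of 18 had a positive log2 fold change (median 0.29), and 12 of 18 without cKO replicate 2 (median 0.087). With all libraries, 47.3% of all genes tested were positive, and 56.8% of those at least as high as Ciart. At an unadjusted p under 0.05 Nfkbia (840.4 ± 121 in cKO, 626 ± 26.7 in WT) and Ddit4 (2910.5 ± 448 in cKO, 2240.0 ± 258 in WT) were higher, and 0 passed limma over all genes. At that p 4.07% of all genes tested were higher, and 7.34% of those at least as high as Ciart. The authors' deposited table gives Nfkbia an FDR of 0.0422.

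Per3, Cry1, Ciart and Tef had their highest value in cKO replicate 2, and Per1, Cry2, Nr1d1 and Dbp in cKO replicate 4. cKO replicate 4 also held the highest value of 11 of 20 activity-induced genes, 7 of 10 genes of the PAR bZIP list and 7 of 10 interneuron markers, against 14.6% of all genes tested. Its part in the values of Per1 and Dbp was tested only by leaving it out. No cKO library held the lowest value of any of the 10 genes. Of all genes tested, 13.8%, 16.7%, 14.4% and 13.2% are lowest in cKO replicates 1 to 4. WT replicates 1 and 2 held the lowest value of 4 of the 10 genes each, against 14.4% and 9.62% of all genes tested. Without cKO replicate 2, all 10 log2 fold changes stayed positive (median 0.16), 3 of the 10 (Per1, Cry1 and Ciart) had an unadjusted p under 0.05 and were higher (4.75% of all genes tested were, and 10.3% passed in either direction). Without that library Per1, Ciart and Tef had no overlap, which their lack of overlap with all libraries already fixed. Of all genes tested, 4.71% then have every cKO library above every WT library. The adjusted p without that library was 0.435 for Per1, 0.478 for Cry1, 0.472 for Ciart and 0.535 for Tef. Beyond leaving libraries out, the part of hormone-induced genes, oligodendrocyte and choroid plexus content, and the hour of sampling in these values was not tested.

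**Figure D4:**
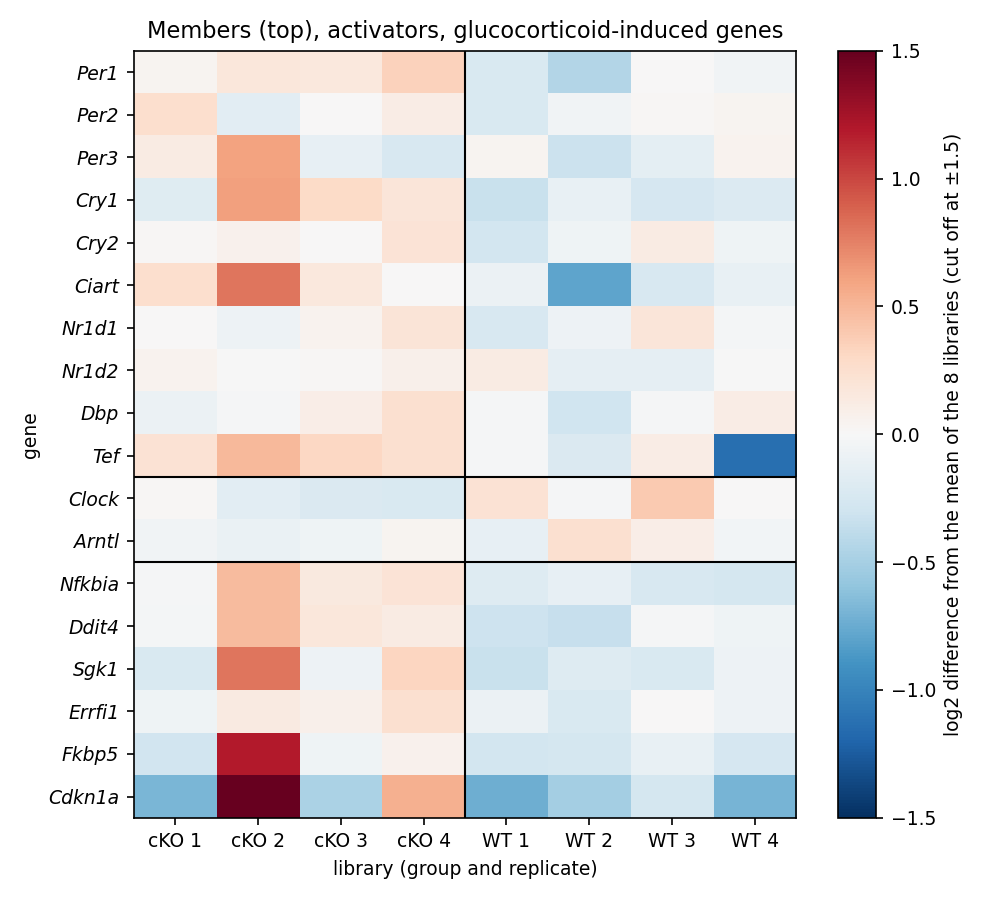
Log2 difference of each gene from its mean over the 8 libraries (colour, cut off at ±1.5), with cKO replicates 1 to 4 on the left and WT replicates 1 to 4 on the right. Rows are the 10 genes, then Clock and Arntl, then 6 glucocorticoid-induced genes. Column cKO 2 is red for Per3, Cry1, Ciart and Tef and for Fkbp5, Sgk1 and Cdkn1a, and nearly blank for Nr1d1, Nr1d2 and Dbp.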

How the data were processed

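RNA from CA1 tissue of 4 cKO and 4 WT libraries was sequenced with a stranded mRNA kit, per the labels' protocols. STAR, StringTie and DESeq2 are named with mm9 as the build, per the submitters' processing notes; their versions, roles, annotation and strand setting are not stated there. The authors deposited 1 table of log2 values, each equal to log2(reads / size factor + 1), since 100% of values are whole multiples of 1 step per library (tolerance 0.001 reads), which gave back the reads and the depth. Beside these, the authors deposited a fold change (log2), a p-value and an FDR per gene. Groups came from the sample titles.

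limma 3.58.1 (R 4.3.3; mean-variance trend, robust) was fitted on the deposited log2 values (pseudocount 1) of 26135 genes with at least 1 normalized read in at least 4 libraries, with adjusted p over all of them and a threshold of 0.05. limma-voom on recovered reads, other scalings and filters, array weights, a pseudocount of 0.1, leaving out each library and a replicate block were alternatives. Single values were compared by two-sided exact permutation (scipy 1.17.1). Exon lengths came from GENCODE M21 and promoters from RefSeq. The fit was tested on simulated data. Named genes were the 10 genes, Brpf1, Thra, Clock, Arntl and, of each pathway list, up to 4 genes with the smallest p, the 3 genes most like Per1, Per2 and Dbp, and the 2 highest genes of a marker list; the text names a part of them, and some are not reported here. The 10 genes and the lists were chosen with earlier results of these data known. Figures were drawn with matplotlib 3.10.9.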

Additional observations from a re-analysis of the deposited data

Results flagged for a closer look

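Of 84 groups of 4 libraries examined (42 genes and ratios, each in cKO and WT), 5 held a library far from the other 3, where chance gives about 1 in 20. Fkbp5 and Cdkn1a, which are among those flagged, were added to the scan after their values were seen. The count of 5 can therefore not be set against the chance rate. Fkbp5 had 5653 normalized reads in cKO replicate 2, against 2027 to 2585 in the other cKO libraries. Cdkn1a had 2372 in the same library, against 209.6 to 488. In WT, Fkbp5 had 2282 in replicate 3, against 2034 to 2076. Arc, an activity-induced gene, had 5554 in WT replicate 3, against 4065.5 to 4250.2 in the other WT libraries. The ratio of Per1 to Clock was 0.459 in WT replicate 4, against 0.353 to 0.369. Among the 10 clock genes themselves, no group held a library so far from its others by this measure, Tef in WT replicate 4 included.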

How the results depend on the processing

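Under 16 alternatives (and a threshold of 0.1 on the adjusted p) 0 of the 10 clock genes passed, their directions stayed positive, and between 3 and 5 had an unadjusted p under 0.05. Per1, Cry1 and Ciart did so under all 16, Tef under 13, and Cry2 only without WT replicate 3. Over the 16, the log2 fold change ran from 0.27 to 0.42 for Per1, from 0.32 to 0.59 for Cry1, from 0.45 to 0.71 for Ciart and from 0.35 to 0.78 for Tef. Adjusted p ran from 0.320 to 0.777, from 0.252 to 0.781, from 0.371 to 0.777 and from 0.403 to 0.786 for these genes in the same order. Genes past the threshold in the whole table numbered 5, but 8 with array weights and 2 with the replicate block, and from 4 to 7 when 1 library was left out; the cause was not tested. With the replicate block 4 of the 10 genes still had an unadjusted p under 0.05. Libraries with the same number did not deviate together (correlation of deviations from −0.018 to 0.059, never all over 0.1, and not every library correlated best with its own number), so the numbers are not taken as pairs. Precision is limited by 4 libraries a group, since the 10 genes had from 1030 to 51698 reads per group.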

Other observations

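Genes that respond to neuronal activity, among which Per1 is often counted, did not share one direction. Of 20 activity-induced genes, 12 had a positive log2 fold change (median 0.020), and 0 passed limma over all genes, with 1 higher and 2 lower in cKO at an unadjusted p under 0.05. Of all genes tested, 47.3% were positive, and 4.07% were higher and 4.6% lower at that p. Without cKO replicate 2, 15 of the 20 were positive (median 0.098), with 2 higher and 2 lower at that p. Npas4, a transcription factor gene induced by calcium entry, averaged 359 ± 159.5 normalized reads in cKO and 697 ± 153 in WT (SD, n = 4 each, exact permutation p = 0.0571, limma adjusted p = 0.496). Btg2 (unadjusted p under 0.05 in 12 of 16 alternatives) averaged 839 ± 63.6 in cKO and 1003 ± 101.3 in WT without overlap, and Jun 4055 ± 341 in cKO and 3106 ± 722 in WT with overlap. Of 10 genes that follow body temperature, 7 had a positive log2 fold change (median 0.12), with 1, the chaperone gene Hspa8, higher at an unadjusted p under 0.05, as under 12 of 16 alternatives (46395 ± 7942 in cKO, 36855 ± 3203 in WT). Without cKO replicate 2, 6 of these 10 were positive (median 0.046). The cold-induced gene Cirbp, chosen after its values were seen, had 4358 in cKO replicate 2 and from 1803 to 2520.5 in the other cKO libraries, against 2017 to 2630 in WT.

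The genes most like Per1, Per2 and Dbp were sought among 16721 genes by the Pearson correlation of deviations from the group means over the 8 libraries, as a description with no test. They were 4933431K14Rik for Per1 (r = 0.982, Spearman rho 0.905, with Emc3 at 0.979 and Amz2 at 0.973), Letmd1 for Per2 (r = 0.965, rho 0.952, with Kcna3 at 0.964) and Gm10704 for Dbp (r = 0.966, rho 0.952, with Map3k10 at 0.956 and Abhd14a at 0.953). None of these 8 genes had an unadjusted limma p under 0.05.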
